A study of Eucalyptus grandis
Pisolithus microcarpus and Eucalyptus grandis with 23 samples.

Results

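The comparison described here sets roots of Eucalyptus grandis in contact with strain SI-12 of the ectomycorrhizal fungus Pisolithus microcarpus against roots in contact with strain SI-9, both at 650 ppm CO2. Each strain had 3 libraries, so 6 of the 23 RNA-sequencing libraries of the series carry the contrast, and it was read over all genes of the deposited tables. In every group, seedlings 1 month old were laid in Petri dishes, with a square of mycelium on the root in the mycorrhizal groups and none in the controls, and were harvested after 1 month at constant CO2. The other groups used below are SI-12 and SI-9 roots at 400 ppm, with 3 libraries each, and control roots without fungus, with 5 libraries at 650 ppm and 6 at 400 ppm. The labels call the libraries of a group biological replicates without tying them to single plants or dishes, so p-values measure the spread between libraries, which may be technical.

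In an ectomycorrhiza the fungus wraps fine roots in a mantle and grows between the outer root cells as the Hartig net, where sugars of the plant are exchanged for mineral nutrients. The plant reprograms its root cells while the contact forms, in part under the action of small proteins that the fungus secretes. Isolates of a single fungal species are known to differ in how readily they colonise a given host. The tables list plant genes only, so how much of each root was colonised was not measured here. In whole roots, fewer cells of a type and less RNA per cell cannot be told apart.

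Genes carry the identifiers of the Eucalyptus grandis annotation, in which the letters A to K stand for the chromosomes and L for scaffolds not placed on them. The files give no gene names or descriptions, and 0 of the 36376 identifiers matched the reference table, so no gene function is given below. For the same reason the labelled tissue was not checked against marker genes. The genes named were taken by a rule from the extremes of each kind of pattern, and their values describe those extremes.

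The 6 libraries held 13443110 to 24647735 reads on genes, within a range of 4497662 to 30210474 over the series, and 3 reads in 1 of them correspond to 0.122 to 0.252 CPM. CPM here means reads scaled to 1000000 gene reads of the library, with the reads of Eucgr.B01584.1 left out of the total and with TMM scaling. Libraries were compared by the coefficient of variation (CV) across genes beyond counting noise. The 3 SI-12 libraries differed from each other by a CV of 0.0773 to 0.0963, and SI-9 libraries 1 and 2 by 0.0628, so each of these sets is nearly a single profile. SI-9 library 3 lay 0.517 and 0.523 from the other SI-9 libraries. SI-12 libraries lay 0.447 to 0.458 from SI-9 libraries 1 and 2, and 0.537 to 0.547 from SI-9 library 3, so library 3 stood farther from SI-9 libraries 1 and 2 than SI-12 did, though it was nearer to them than to SI-12. The deposited library numbers put all SI-9 libraries among 1 to 12 and all SI-12 libraries among 13 to 24. Strain and library number therefore cannot be told apart, whereas the controls have libraries in both ranges. Control libraries of different ranges lay 0.461 to 0.473 apart at 400 ppm, slightly farther than SI-12 lay from SI-9 libraries 1 and 2, and 0.247 to 0.253 apart at 650 ppm. Inside a range they lay within 0.101 of each other.

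**Figure D1:**
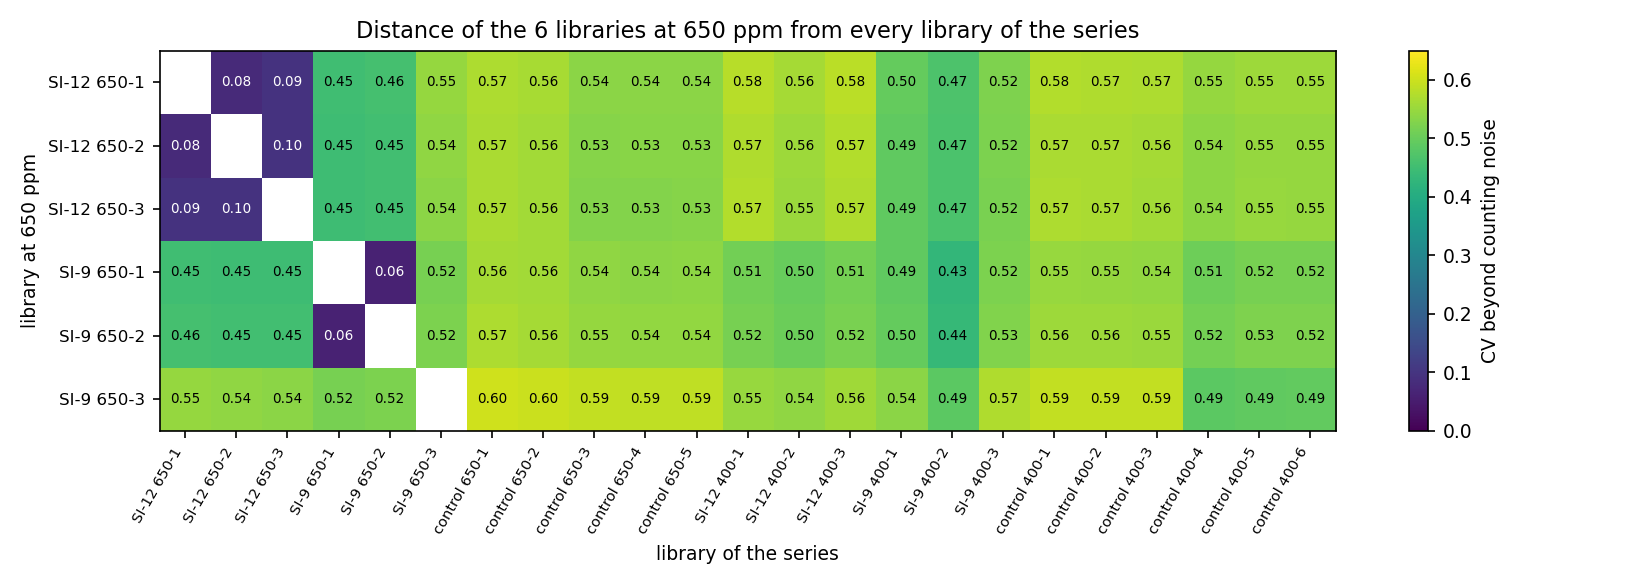
Distance of each of the 6 libraries at 650 ppm (rows) from every library of the series (columns), as the CV across genes beyond counting noise (colour scale and printed value). The SI-12 libraries and SI-9 libraries 1 and 2 form tight blocks at 0.0963 or less, while SI-9 library 3 lies at 0.486 or more from each other library.

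Between SI-12 and SI-9 roots at 650 ppm, SI-12 roots had 1765 genes higher and 2238 lower at an adjusted p under 0.05, out of 27460 tested. These are 6.43% and 8.15% of the genes tested, and 14.6% together. The genes called higher had a median log2 fold change of 1.47 and those called lower of -0.99, against -0.02 over all genes tested. At least 2-fold changes made up 1169 of the higher and 1117 of the lower calls. At least 4-fold changes made up 657 and 601, with genes that had no read in a group set at their lower bound. Read levels did not overlap between the groups for 36.2% of all genes tested, and for 1737 of the higher and 2028 of the lower calls. The count fell to 2511, 2582 and 2612 called genes when SI-12 library 1, 2 or 3 was left out, and was 4522 without SI-9 library 3. When each near-identical set of libraries was taken as 1 replicate, edgeR left 0 called out of 30254 genes tested in that setting. Of these, 2223 had an unadjusted p under 0.05, a threshold that some unchanged genes also pass. DESeq2 on these sets left 518, of which 222 were higher and 296 lower.

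**Figure D2:**
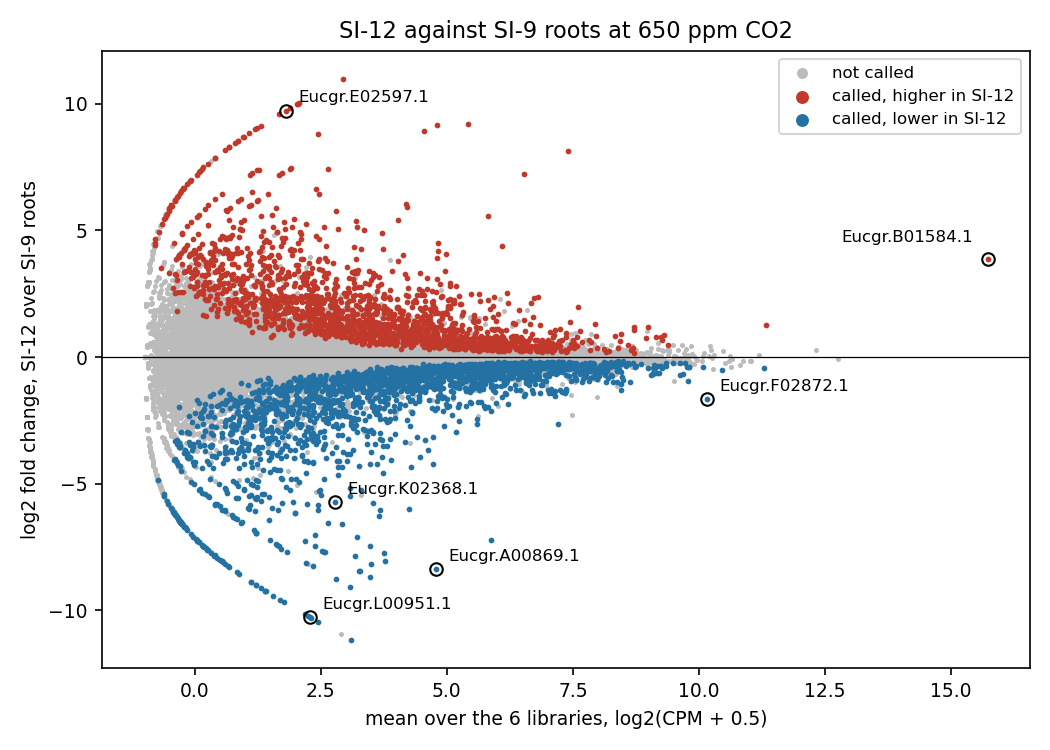
Log2 fold change of SI-12 over SI-9 roots at 650 ppm (vertical axis) against the mean level over the 6 libraries as log2(CPM + 0.5) (horizontal axis), 1 point per gene tested. Red points are the 1765 genes called higher and blue points the 2238 called lower in SI-12 roots, with 6 genes of the text circled.

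Calls were also counted by class of read level. Among genes with a mean under 1 CPM over the 6 libraries, 7.96% were called, with a median absolute log2 fold change of 3.99 among the calls. The share was 15.6% between 1 and 10 CPM, 15.5% between 10 and 100 CPM and 17.5% between 100 and 1000 CPM. The median absolute log2 fold changes of the calls there were 2.13, 0.73 and 0.43. Of the 29 genes at 1000 CPM or more 20.7% were called, with a median of 0.89, so the changes became smaller with level only up to 1000 CPM. By letter of the identifier, the share called ran from 12.1% for J to 18.1% for C, and it was 16.6% for genes on unplaced scaffolds. Of the 5875 tested genes with under 90% of reads matching a single gene, 16.9% were called, against 13.95% of the others. Counts of such genes, which share reads with similar copies, are uncertain.

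The genes with the smallest adjusted p were chosen among called genes whose levels did not overlap between the groups, SI-9 library 3 included. Eucgr.B01945.1 had 135.5, 133.8 and 137.6 CPM in SI-12 roots, against 46.0, 55.5 and 45.2 CPM in SI-9 roots. The SI-12 libraries lay close together and far above each SI-9 library. Its log2 fold change was 1.47 (SE 0.09, edgeR adjusted p = 2.78e-09). Eucgr.D00367.1 had 21.1, 21.3 and 19.1 CPM in SI-12 roots and 2.45, 2.23 and 1.82 CPM in SI-9 roots, a log2 fold change of 3.24 (SE 0.22, edgeR adjusted p = 5.56e-09).

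In both of these genes the SI-12 roots stood near the control roots of the same CO2 level. Control roots at 650 ppm averaged 112.7 ± 8.75 CPM (SD, n = 5) of Eucgr.B01945.1 and 18.01 ± 1.61 CPM (SD, n = 5) of Eucgr.D00367.1. Over all genes tested, 39.6% were called between SI-12 and control roots, 20% higher and 19.6% lower in SI-12. Between SI-9 and control roots 36.6% were called, 19.6% higher and 16.9% lower in SI-9. Against these controls, Eucgr.D00367.1 had a log2 fold change of 0.19 in SI-12 roots (edgeR adjusted p = 0.428) and of -3.05 in SI-9 roots (edgeR adjusted p = 8.07e-10). For Eucgr.B01945.1 the same contrasts gave 0.27 in SI-12 roots (edgeR adjusted p = 0.0124) and -1.20 in SI-9 roots (edgeR adjusted p = 1.43e-09). At 400 ppm the strains had 6.80 ± 2.45 CPM in SI-12 roots and 8.10 ± 1.28 CPM in SI-9 roots (SD, n = 3 each) of Eucgr.D00367.1, which was not called there (edgeR adjusted p = 0.352).

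The falls with the smallest adjusted p showed the other arrangement, with SI-9 roots near the controls. Eucgr.K02368.1 had 0.206, 0.234 and 0.252 CPM in SI-12 roots, against 10.8, 8.44 and 18.1 CPM in SI-9 roots. Those 3 SI-12 values rest on 10 reads in all, against 838 reads in SI-9 roots. The log2 fold change was -5.73 (SE 0.36, edgeR adjusted p = 2.78e-09). This gene averaged 15.6 ± 1.31 CPM (SD, n = 5) in control roots at 650 ppm, and 14.4 ± 1.51 CPM in SI-12 roots and 10.5 ± 1.54 CPM in SI-9 roots at 400 ppm (SD, n = 3 each). SI-12 roots at 650 ppm were thus the low group among these 5. Eucgr.G01473.1 behaved alike, with 11.4, 13.8 and 14.8 CPM in SI-12 roots and 78.5, 72.7 and 94.7 CPM in SI-9 roots. Its log2 fold change was -2.63 (SE 0.17, edgeR adjusted p = 2.78e-09), and control roots at 650 ppm averaged 70.6 ± 2.563 CPM (SD, n = 5).

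**Figure D3:**
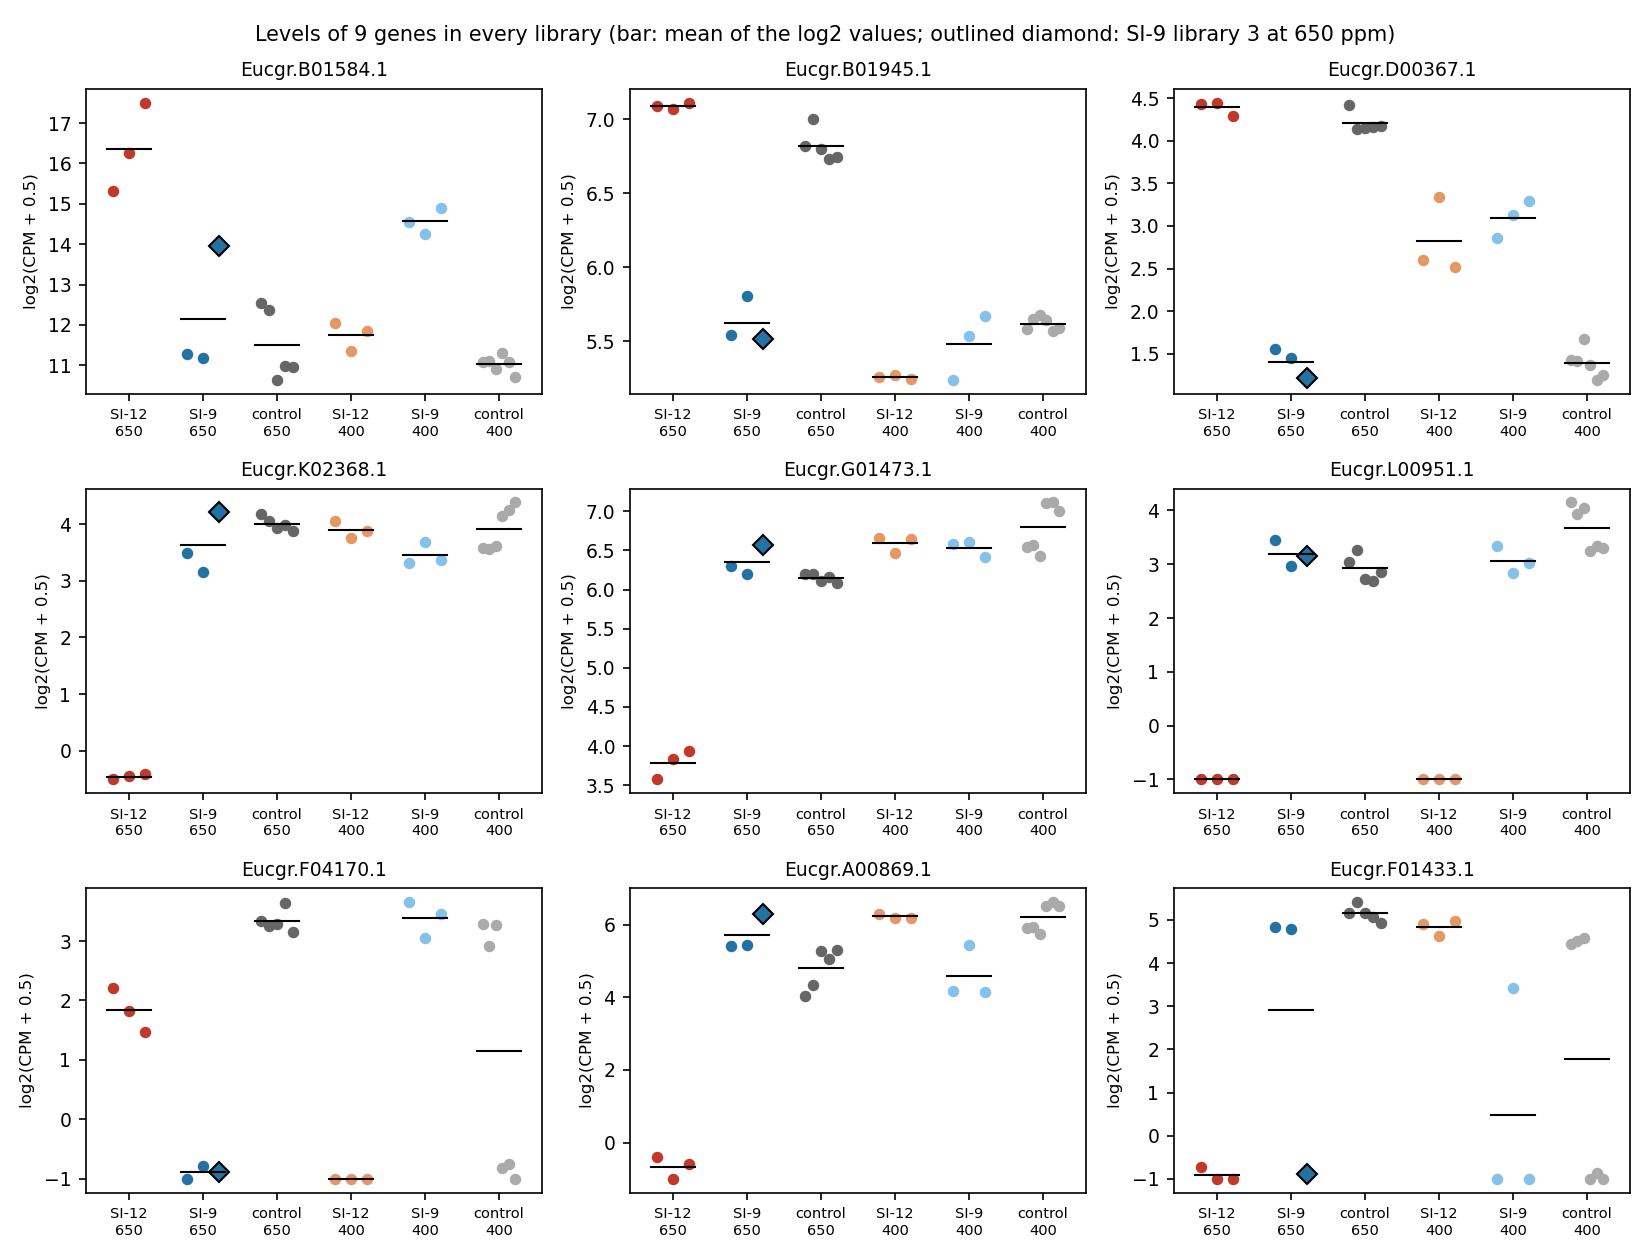
Levels of 9 genes in each library as log2(CPM + 0.5), 1 panel per gene with its own vertical axis, and groups by strain and CO2 in ppm along the horizontal axis. Points are libraries, bars the mean of the log2 values, and the outlined diamond is SI-9 library 3 at 650 ppm, which lies with SI-9 libraries 1 and 2 for Eucgr.D00367.1 and with the SI-12 libraries for Eucgr.F01433.1.

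Eucgr.B01584.1 was the gene with the most reads that changed. It had 41087, 79126 and 185630 reads per 1000000 other gene reads in SI-12 roots, against 2490, 2334 and 15941 in SI-9 roots. No SI-9 library reached the lowest SI-12 library, and SI-9 library 3 stood well above the other SI-9 libraries. The log2 fold change was 3.88 (SE 0.68, edgeR adjusted p = 0.000573). It was 5.40 without SI-9 library 3 and 3.12 without SI-12 library 3, and the gene stayed called in both cases. With sets as replicates it was not called (adjusted p = 0.5668 in edgeR and 0.1385 in DESeq2). Its share of all gene reads averaged 9.27% ± 6.25 in SI-12 roots and 0.689% ± 0.776 in SI-9 roots (SD, n = 3 each), with an exact 2-sided permutation p of 0.1, the smallest that 3 against 3 libraries can give. Per kilobase of its 1661 bp, it ranked 1 by RPKM in each SI-12 library, at 24508, 45349 and 97508 RPKM. That was 3.12, 5.93 and 14.2 times the gene next in rank. Among the SI-9 libraries it ranked 7 and 8 in libraries 1 and 2, at 1498 and 1404 RPKM, and 1 in library 3, at 9546 RPKM.

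The strain difference of Eucgr.B01584.1 ran the other way at 400 ppm. SI-12 roots there had 4211, 2610 and 3721 reads per 1000000 other gene reads, against 23876, 19586 and 30373 in SI-9 roots, a log2 fold change of -2.81 (SE 0.65, edgeR adjusted p = 0.00308). The difference between the strain contrasts at 650 and 400 ppm was 6.69 on the log2 scale (edgeR adjusted p = 2.7e-05). Control roots at 650 ppm held 1593, 2028 and 1972 in libraries 3 to 5, and 5981 and 5318 in libraries 1 and 2.

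Other genes changed at least 2-fold were chosen for their high CPM, which is not corrected for gene length. Eucgr.E00448.1 had 682.9, 726.1 and 714.9 CPM in SI-12 roots and 335.3, 315.9 and 275.3 CPM in SI-9 roots, a log2 fold change of 1.20 (SE 0.33, edgeR adjusted p = 0.0163). In controls at 650 ppm it stood at 365.7 to 387.9 CPM in libraries 3 to 5, numbered with SI-12, and at 120.8 and 125.6 CPM in libraries 1 and 2, numbered with SI-9. In controls at 400 ppm the split ran the other way, with 276.9 to 297.7 CPM in libraries 4 to 6 and 378 to 407.8 CPM in libraries 1 to 3, a log2 fold change of -0.45 (edgeR adjusted p = 0.000107). Library number as a block takes 1 shift per gene from the controls of both CO2 levels together. With it the log2 fold change was 0.79 and the gene was not called (edgeR adjusted p = 0.1748).

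Eucgr.F02872.1 had 525.1, 565.1 and 562.5 CPM in SI-12 roots and 1824, 1851 and 1514 CPM in SI-9 roots, a log2 fold change of -1.65 (SE 0.32, edgeR adjusted p = 0.00146). Its control libraries 3 to 5 were also above libraries 1 and 2, by 1.07 on the log2 scale (edgeR adjusted p = 4.84e-05), a difference opposite in sign to that of the strains. At 400 ppm its control libraries 4 to 6 were below libraries 1 to 3, with a log2 fold change of -0.94 (edgeR adjusted p = 1.02e-05), the sign of the strain contrast at 650 ppm. Eucgr.I02163.1 had 226.9, 227.6 and 228.5 CPM in SI-12 roots, nearly the same value, and 453.4, 472.9 and 494.2 CPM in SI-9 roots. Its log2 fold change was -1.06 (SE 0.14, edgeR adjusted p = 4.55e-05), and that of control libraries 4 to 6 over 1 to 3 at 400 ppm was -0.54 (edgeR adjusted p = 1.52e-05). At 400 ppm SI-12 roots exceeded SI-9 roots in both genes, with log2 fold changes of 1.08 for Eucgr.F02872.1 (edgeR adjusted p = 0.0152) and 0.69 for Eucgr.I02163.1 (edgeR adjusted p = 0.00139).

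Some genes were read with 1 strain and not with the other. Out of 27460 genes tested, no read was found in the 3 SI-12 libraries for 90 genes with reads in all 3 SI-9 libraries, and 59 of them were called. Conversely, 67 genes had reads in all 3 SI-12 libraries and none in SI-9, and 53 were called. Most had few reads, and 31 and 28 of these genes averaged at least 1 CPM in the other strain. Apart from Eucgr.B01584.1, SI-12 libraries held 11435584 to 18829208 gene reads and SI-9 libraries 17894335 to 24590256. A gene of low level is thus more easily left without reads in SI-12 roots. Of the 90, 13 had no read in control roots at 650 ppm, and of the 67, 18 had none there.

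Eucgr.E02597.1 had 6.48, 6.17 and 5.38 CPM in SI-12 roots and no read in SI-9 roots, which puts SI-12 at least 134-fold higher when the group without reads is set at 3 counts in all (edgeR adjusted p = 0.0142). Eucgr.E02341.1 had 4.99, 5.31 and 5.88 CPM in SI-12 roots and no read in SI-9 roots, which puts SI-12 at least 120-fold higher (edgeR adjusted p = 0.045). This call was lost with DESeq2 (adjusted p = 0.1635) and when any 1 of the 6 libraries was left out. The 5 control libraries at 650 ppm held no read of Eucgr.E02341.1 and 0.1435 CPM of Eucgr.E02597.1 in library 5 alone. Both were thus read almost only in SI-12 roots at this CO2 level. The controls at 400 ppm were split by library number. Their libraries 4 to 6, numbered with SI-12, held 5.64, 4.88 and 5.45 CPM of Eucgr.E02597.1, and libraries 1 to 3, numbered with SI-9, held 0, 0 and 0.0812 CPM (edgeR adjusted p = 7.61e-06). Of Eucgr.E02341.1, libraries 4 to 6 held 3.89, 1.93 and 3.78 CPM and libraries 1 to 3 no read (edgeR adjusted p = 2.83e-05). Roots without fungus thus had or lacked reads of both genes along the library number at 400 ppm.

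In the other direction, Eucgr.L00951.1 had no read in SI-12 roots and 10.4, 7.31 and 8.43 CPM in SI-9 roots, which puts SI-12 at least 128-fold lower (edgeR adjusted p = 1.59e-08). Eucgr.G01336.1 had no read in SI-12 roots and 4.07, 4.10 and 4.75 CPM in SI-9 roots, which puts SI-12 at least 63.4-fold lower (edgeR adjusted p = 6.26e-06). SI-9 library 3 lay with the other SI-9 libraries in both, which follows from how they were chosen. Both were taken by the rule that library 3 lies within 1.5-fold of its group. Eucgr.L00951.1 was also taken for having no read in SI-12 roots. Control roots at 650 ppm held 7.16 ± 1.32 CPM of Eucgr.L00951.1, near the SI-9 level, and 0.459 ± 0.217 CPM of Eucgr.G01336.1, far below it (SD, n = 5 each). Eucgr.C01432.1 had no read in SI-12 roots and 2.68, 3.25 and 18.2 CPM in SI-9 roots, which puts SI-12 at least 118-fold lower (edgeR adjusted p = 0.00114), with most of its SI-9 reads, 440, in library 3. Without that library the bound was 43.6-fold (edgeR adjusted p = 0.00323). Control roots at 650 ppm held 0.946 ± 0.308 CPM of Eucgr.C01432.1 (SD, n = 5), below each SI-9 library. At 400 ppm, control libraries 4 to 6 held 13.1 to 17.8 CPM of it and libraries 1 to 3 held 1.39 to 1.79 CPM. That split had a log2 fold change of 3.30 (edgeR adjusted p = 0.000191), opposite in sign to the strain contrast at 650 ppm.

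The same strain contrast was then read in the libraries at 400 ppm, which the contrast at 650 ppm does not use. At 400 ppm, 27.9% of the genes tested were called, 12.8% higher and 15.1% lower in SI-12 roots. Leaving out SI-9 library 1 or 3 of that CO2 level lowered this count of 7668 to 5024 and 4474. Of the 1765 genes higher in SI-12 roots at 650 ppm, 179 (10.1%) were also higher at 400 ppm, 601 (34.1%) were lower and 985 were not called. Of the 2238 genes lower at 650 ppm, 264 (11.8%) were also lower at 400 ppm, 607 (27.1%) were higher and 1367 were not called. The shares that went along with the contrast were thus below the background at 400 ppm, and the shares that went against it above the background.

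Together, 443 genes were called in the same direction at both CO2 levels, which is 11.1% of the list at 650 ppm and 5.78% of that at 400 ppm. Opposite directions were called for 1208 genes, 30.2% and 15.8% of these lists. Without SI-9 library 3 at 650 ppm and SI-9 library 2 at 400 ppm, which stand apart from their groups, these numbers were 813 and 1810. The strain contrast itself differed between the CO2 levels in 7562 genes (27.5% of those tested), among them 2716 of the 4003 genes called at 650 ppm (67.8%). The genes higher at 650 ppm had a median log2 fold change of -0.36 at 400 ppm, and those lower at 650 ppm of 0.20, against 0.01 over all genes tested.

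**Figure D4:**
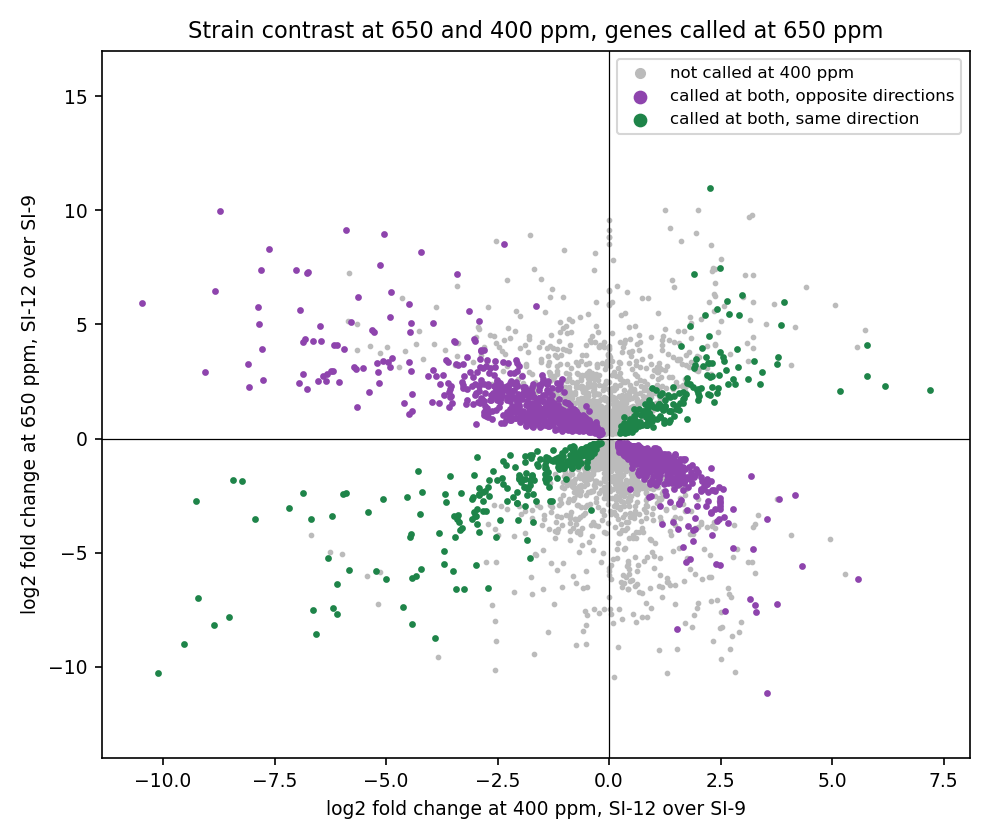
Log2 fold change of SI-12 over SI-9 roots at 650 ppm (vertical axis) against the same contrast at 400 ppm (horizontal axis) for the 4003 genes called at 650 ppm. Green points are the 443 genes called in the same direction at both CO2 levels, purple points the 1208 called in opposite directions, and grey points those not called at 400 ppm.

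Among the genes called alike at both CO2 levels, Eucgr.L00951.1 had no read in the 3 SI-12 libraries at 400 ppm either, and 7.96 ± 1.54 CPM (SD, n = 3) in SI-9 roots (edgeR adjusted p = 3.7e-08). Control roots held it at both CO2 levels, so SI-12 roots were the groups without reads. Eucgr.H01750.1 had no read in SI-12 roots at either level. SI-9 roots held 1.12, 0.162 and 9.55 CPM of it at 650 ppm (at least 53.1-fold lower in SI-12, edgeR adjusted p = 0.00204) and 5.38 ± 2.38 CPM at 400 ppm (SD, n = 3; edgeR adjusted p = 0.000925). Library 3 held 231 of its 255 SI-9 reads at 650 ppm, and without it the bound was 9.41-fold (edgeR adjusted p = 0.004371). Control roots averaged 5.36 ± 1.78 CPM (SD, n = 5) of it at 650 ppm.

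Eucgr.C00809.1 was higher in SI-12 roots, with 4.01, 4.14 and 3.70 CPM against 0.112, 0.0812 and 0.165 CPM in SI-9 roots. The log2 fold change was 4.96 (SE 1.15) at 650 ppm (edgeR adjusted p = 0.00576) and 3.85 (SE 1.30) at 400 ppm (edgeR adjusted p = 0.032). Eucgr.A00696.1 had 4.58, 3.36 and 4.70 CPM in SI-12 roots and 0.0558, 0.0406 and 0.910 CPM in SI-9 roots, with log2 fold changes of 3.59 at 650 ppm (edgeR adjusted p = 0.00804, and 0.05303 when only the 6 libraries were fitted) and 3.79 at 400 ppm (edgeR adjusted p = 0.0159). Without SI-9 library 3 its log2 fold change at 650 ppm was 6.28. SI-9 roots at 400 ppm held 3 reads in all of each gene. Controls at 650 ppm were low as well, at 0.158 ± 0.102 CPM of Eucgr.C00809.1 and 0.0594 ± 0.0710 CPM of Eucgr.A00696.1 (SD, n = 5 each). At 400 ppm the arrangement of Eucgr.A00696.1 was another, with 1.56 ± 1.09 CPM in SI-12 roots (SD, n = 3) and 1.43 ± 0.330 CPM in control roots (SD, n = 6), and SI-9 roots were the low group. Eucgr.C00809.1 at 400 ppm had 0.713, 0.435 and 0.454 CPM in control libraries 4 to 6 and no read in libraries 1 to 3.

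Turns between CO2 levels were followed in 4 genes, chosen for opposite calls and the largest differences between the CO2 levels. Of these, Eucgr.F04170.1 and Eucgr.K02158.1 were near 0 in SI-9 roots at 650 ppm and in SI-12 roots at 400 ppm. Eucgr.F04170.1 had 4.11, 3.05 and 2.27 CPM in SI-12 roots and 0, 0.0812 and 0.0413 CPM in SI-9 roots at 650 ppm. The ratio of the summed reads was 73.6, with a counting interval of 24.7 to 361 because SI-9 roots held only 3 reads (edgeR adjusted p = 0.022). The call was lost when SI-12 library 1 or any SI-9 library was left out. At 400 ppm SI-12 roots had no read of it and SI-9 roots 10.1 ± 2.18 CPM (SD, n = 3; edgeR adjusted p = 0.00334). Control roots at 400 ppm showed the same split by library number, with 0.0648, 0.0967 and 0 CPM in libraries 4 to 6, numbered with SI-12, and 9.23, 7.02 and 9.18 CPM in libraries 1 to 3 (edgeR adjusted p = 2.21e-09). The controls at 650 ppm averaged 9.65 ± 1.33 CPM (SD, n = 5), above both strains.

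Eucgr.K02158.1 had 2.88, 2.11 and 1.60 CPM in SI-12 roots and no read in SI-9 roots at 650 ppm, at least 48.8-fold higher (edgeR adjusted p = 2.09e-05). At 400 ppm it averaged 0.0683 ± 0.118 CPM in SI-12 roots, from 2 reads, and 12.9 ± 5.27 CPM in SI-9 roots (SD, n = 3 each; edgeR adjusted p = 2.69e-06). The strain with reads thus changed between CO2 levels. Controls at 650 ppm held 1.62 ± 0.463 CPM (SD, n = 5), close to the SI-12 roots.

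Turns of the opposite kind were seen in Eucgr.A00869.1 and Eucgr.G02152.1. Eucgr.A00869.1 had 0.257, 0 and 0.168 CPM in SI-12 roots and 41.8, 42.5 and 77.8 CPM in SI-9 roots at 650 ppm, a log2 fold change of -8.36 (SE 0.64, edgeR adjusted p = 2.51e-08). At 400 ppm SI-12 roots held more of it, at 74.5 ± 3.23 CPM, and SI-9 roots less, at 25.7 ± 14.6 CPM (SD, n = 3 each; edgeR adjusted p = 0.00478). Its control libraries 3 to 5 at 650 ppm were above libraries 1 and 2 by 1.04 on the log2 scale (edgeR adjusted p = 0.0332), opposite in sign to the strain contrast at 650 ppm. At 400 ppm its control libraries 4 to 6 were above libraries 1 to 3, by 0.69 on the log2 scale (edgeR adjusted p = 0.0363). That is the sign of the strain contrast at 400 ppm. Eucgr.G02152.1 had 1 read in SI-12 roots at 650 ppm and 5.58, 6.46 and 4.59 CPM in SI-9 roots (edgeR adjusted p = 0.000366), and the summed reads gave a level 245 times lower in SI-12 roots, with a counting interval of 43.7 to 9693. At 400 ppm the SI-12 roots held 4.66 ± 1.23 CPM of it, and the SI-9 roots 0.698 ± 1.21 CPM, all in library 2 (SD, n = 3 each; edgeR adjusted p = 0.0224). The 5 control libraries at 650 ppm held no read of Eucgr.G02152.1, so SI-12 roots were near the controls there and SI-9 roots above them. Of Eucgr.A00869.1 these controls held 29.1 ± 10.6 CPM (SD, n = 5), far above the SI-12 roots.

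SI-9 library 3 was then read on its own. Its level differed at least 4-fold from the mean of SI-9 libraries 1 and 2 in 1229 genes (4.48% of those tested), of which 483 were higher and 746 lower in library 3. From the mean of the SI-12 libraries it differed as much in 1447 genes (5.27%). SI-9 libraries 1 and 2 differed from that mean in 987 and 975 genes, and from each other in 2. Its closest libraries were control libraries 4 to 6 at 400 ppm, at a CV of 0.486 to 0.494, and SI-9 library 2 at 400 ppm, at 0.487. The median SD of log2 CPM was 0.150 in SI-12 and 0.245 in SI-9 roots, and 67.2% of the genes varied more among the SI-9 libraries.

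For genes that separated SI-12 from SI-9 libraries 1 and 2 at least 4-fold without overlap, the place of library 3 was put on a log2 scale where 0 is the mean of SI-9 libraries 1 and 2 and 1 is that of SI-12. Library 3 was not used to choose them. Among the 510 genes higher in SI-12, its median place was 0.230, with quartiles of -0.0426 and 0.617, and 163 genes (32.0%) were nearer to SI-12. Among the 440 genes lower in SI-12, the median place was 0.605, with quartiles of 0.187 and 1, and 244 genes (55.5%) were nearer to SI-12. Library 3 was thus nearer to its own strain in most of the genes that SI-12 roots held higher. In the genes they held lower its places were spread. Of these, 65 (14.8%) were at or beyond the mean of SI-9 libraries 1 and 2, and 119 (27.0%) at or beyond the SI-12 mean. A gene with few reads in library 3 lies toward 0 among the higher genes and toward 1 among the lower ones.

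**Figure D5:**
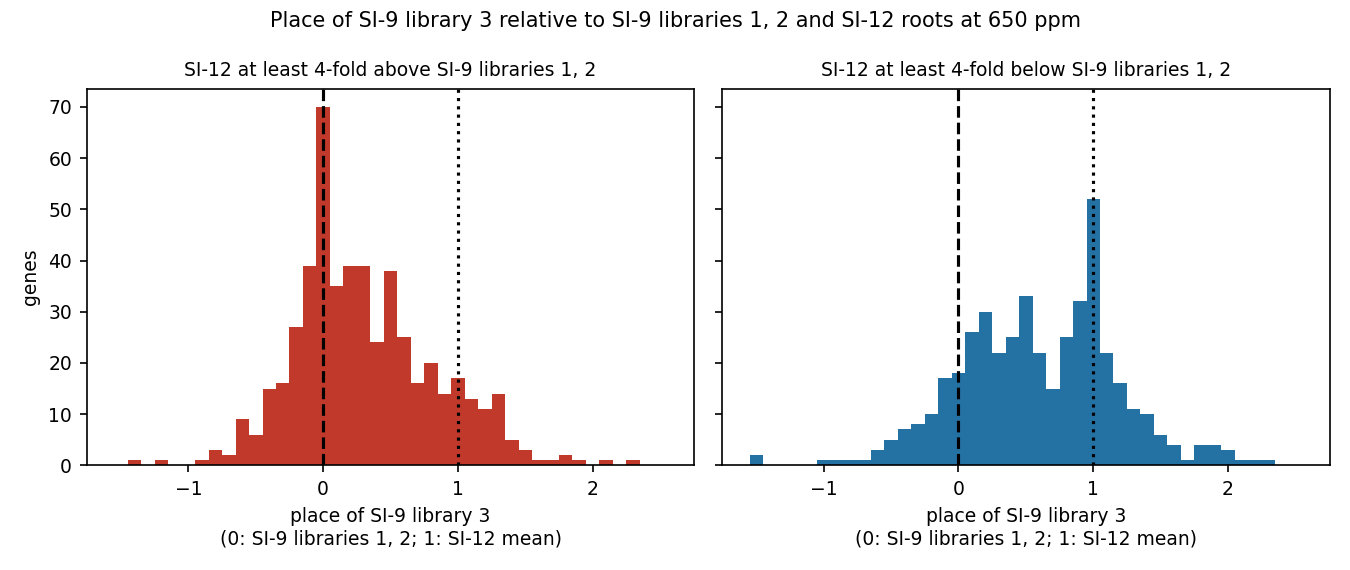
Place of SI-9 library 3 between SI-9 libraries 1 and 2 (dashed line, 0) and the SI-12 libraries (dotted line, 1), as counts of genes (vertical axis). On the left are the 510 genes at least 4-fold above SI-9 libraries 1 and 2 in SI-12 roots, with a peak at 0, and on the right the 440 genes at least 4-fold below, with a peak at 1.

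The genes in which library 3 left its group most clearly were chosen by that position, so their values are a description. Eucgr.F02996.1 had 13.2, 10.2 and 9.83 CPM in SI-12 roots and 1.28, 1.10 and 9.84 CPM in SI-9 roots. Eucgr.E03133.1 had 16.1, 20.2 and 17.2 CPM in SI-12 roots and 2.90, 2.80 and 18.6 CPM in SI-9 roots. In both, library 3 matched the SI-12 level, and neither gene was called with it (edgeR adjusted p = 0.273 and 0.0968). Without library 3 the log2 fold changes were 3.22 for Eucgr.F02996.1 (edgeR adjusted p = 0.01671) and 2.64 for Eucgr.E03133.1 (edgeR adjusted p = 2.013e-07).

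Eucgr.C02048.1 had no read in SI-12 roots, and 12.9, 12.6 and 0 CPM in SI-9 roots, which puts SI-12 at least 125-fold lower on the group means (edgeR adjusted p = 0.0137). Eucgr.F01433.1 had 0.103, 0 and 0 CPM in SI-12 roots and 27.8, 27.2 and 0.0413 CPM in SI-9 roots (edgeR adjusted p = 0.0345, lost when any SI-12 library or SI-9 library 1 or 2 was left out). In each of these genes library 3 was empty or nearly so, like the SI-12 libraries. Control roots at 650 ppm held 7.998 ± 0.367 CPM of Eucgr.C02048.1 and 35.2 ± 4.496 CPM of Eucgr.F01433.1 (SD, n = 5 each). At 400 ppm, control libraries 4 to 6 held 0 to 0.0484 CPM of Eucgr.F01433.1 and libraries 1 to 3 held 21.3 to 23.4 CPM (edgeR adjusted p = 0.000337), and those of Eucgr.C02048.1 held 0.0757 to 0.389 and 3.70 to 5.81 CPM (edgeR adjusted p = 0.00843). SI-12 roots at 400 ppm held 15.04, 19.7 and 16.3 CPM of Eucgr.C02048.1, and 29.3, 24.2 and 30.7 CPM of Eucgr.F01433.1.

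Roots without fungus gave another level beside the strains. For 911 of the 1765 genes higher in SI-12 roots (51.6%) the control mean lay between the strains, for 324 (18.4%) it was beyond SI-12 and for 530 (30.0%) beyond SI-9. For the 2238 genes lower in SI-12 roots these numbers were 1115 (49.8%), 432 (19.3%) and 691 (30.9%). Over all genes tested, which include those whose strains barely differ, the shares were 23.9%, 34.7% and 41.2%. On a log2(CPM + 0.5) scale the control mean was nearer to SI-9 for 56.2% of the higher and 55.7% of the lower calls, against 53.2% of all genes tested. The share nearer to SI-9 was thus near the background.

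Control libraries of the library numbers shared with each strain were compared with each other. At 650 ppm, control libraries 3 to 5 differed from libraries 1 and 2 in 9.47% of the genes tested, with 5.08% higher and 4.39% lower. Of the genes higher in SI-12 roots, 178 (10.1%) differed the same way between these controls and 64 (3.63%) the other way. Of the genes lower in SI-12 roots, 64 (2.86%) differed the same way and 135 (6.03%) the other way. The share that moved with the control split was thus 10.1% for the higher calls, beside a background of 5.08%, and 2.86% for the lower calls, beside a background of 4.39%, and these differences were not tested. At 400 ppm, control libraries 4 to 6 differed from libraries 1 to 3 in 29.1% of the genes tested, with 15.3% higher and 13.8% lower, a comparison added after the data were seen. Of the genes higher in SI-12 roots at 650 ppm, 191 (10.8%) differed the same way in these controls and 370 (20.96%) the other way, and of the genes lower 261 (11.7%) and 454 (20.3%). Of the genes called between the strains at 400 ppm itself, 575 of the 3510 higher (16.4%) and 912 of the 4158 lower (21.9%) differed the same way in these controls, and 364 (10.4%) and 387 (9.31%) the other way. The part of library number in the strain contrasts was not tested. With library number as a block, 5193 genes were called between the strains at 650 ppm, 2837 of them among the 4003. Since strain and library number coincide in mycorrhizal roots, that block takes 1 shift per gene from the controls of both CO2 levels together. It ended the calls of Eucgr.E00448.1, Eucgr.E02597.1, Eucgr.E02341.1, Eucgr.C00809.1, Eucgr.C02048.1 and Eucgr.F01433.1. Of these genes, the control split was called at 400 ppm in each, and at 650 ppm in Eucgr.E00448.1 alone. These lost calls are thus no measure of library number at 650 ppm.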

How the data were processed

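RNA of roots was sequenced in 23 libraries. The deposited tables give per gene the count of total gene reads, the count of unique gene reads and an RPKM. The RPKM values, as deposited, match total reads per kilobase and 1000000 gene reads within 1%. Trimming of read pairs came before the RNA-Seq step, per the file headers of control libraries. Aligner, build and strand setting: not given in the sources used here. Total gene reads were tested with the 2-sided quasi-likelihood test of edgeR 4.0.16 (R 4.3.3), after filterByExpr by group and TMM scaling. P-values were adjusted by Benjamini-Hochberg, with a threshold of 0.05. The fit took all 23 libraries, with 6 group means and 17 residual degrees of freedom, tested on simulated data. Eucgr.B01584.1 was left out of library totals and scaling but tested. SEs are those implied by the test statistic. Counting intervals of ratios are exact 95% intervals and, like the floor of 3 counts, cover counting error only. DESeq2 1.42.0 and the other settings of the closing section served as alternatives. Libraries within a CV of 0.2 were also summed into 10 sets with 4 residual degrees of freedom. In that test SI-12 at each CO2 level is a lone set, assumed to vary like the others.

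Named genes were called, did not overlap between the groups, had a mean of 1 CPM or more in the higher group and at least 90% unique reads. They were the 2 rises and 2 falls with the smallest adjusted p, the highest CPM among at least 2-fold changes, no read in the lower group, the largest change with SI-9 library 3 within 1.5-fold of its group, the same direction at 400 ppm, and opposite directions. Genes of opposite directions also had to be called for the difference between CO2 levels, and those with the largest difference were taken. The genes of the library 3 pattern did not have to be called or free of overlap. Of 4 names of a kind, those that repeat are given once. The members and lists were chosen with earlier results of these data known. Lists by gene description, and the tissue markers, were not applied, since 0 of 36376 identifiers matched the reference table.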

Additional observations from a re-analysis of the deposited data

Results flagged for a closer look

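The strain contrast differed between CO2 levels in 7562 genes by the interaction test (edgeR adjusted p under 0.05), and this test marked 16 of the named genes. Among them, Eucgr.F04170.1, Eucgr.K02158.1, Eucgr.G02152.1 and Eucgr.A00869.1 were chosen on the condition that this test called them. The differences below are the log2 fold change of SI-12 over SI-9 roots at 650 ppm minus that at 400 ppm. For genes with reads in every group they were 1.717 for Eucgr.B01945.1, 3.511 for Eucgr.D00367.1, -6.181 for Eucgr.K02368.1, -2.687 for Eucgr.G01473.1 and 1.987 for Eucgr.E00448.1, which were called between the strains at 650 ppm only. They were 6.689 for Eucgr.B01584.1, -2.729 for Eucgr.F02872.1, -1.743 for Eucgr.I02163.1 and -9.877 for Eucgr.A00869.1, genes called in opposite directions at the 2 CO2 levels. For genes without reads in a group, or nearly so, the fitted difference depends on the prior count and is no measure of size. These differences were -7.6 for Eucgr.C01432.1, -10.37 for Eucgr.G01336.1, 16.42 for Eucgr.F04170.1, 15.9 for Eucgr.K02158.1, -10.16 for Eucgr.G02152.1, -13.04 for Eucgr.C02048.1 and -11.38 for Eucgr.F01433.1.

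Single libraries stood apart in the 5 control roots at 650 ppm for 3 of the 22 named genes checked there, by Dixon's criterion, which chance meets in about 1 of 20 groups. Eucgr.D00367.1 had its highest value, 20.87 CPM, in control library 1. Eucgr.I02163.1 had its lowest value, 257.4 CPM, in control library 2. Eucgr.E02597.1 had 0.1435 CPM in control library 5 and no read in the other control libraries. A gene read in 1 library alone meets this criterion at any level, so the chance rate does not apply to it.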

How the results depend on the processing

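At 650 ppm the count of 4003 called genes stayed between 3339 and 5193 with other scaling factors, Eucgr.B01584.1 kept in the totals, other filters, DESeq2, only the 6 libraries compared, unique reads and both blocks. It was 637 with a minimum fold of 2, a stricter test by construction, and 0 in edgeR and 518 in DESeq2 with sets as replicates, which are fewer than libraries by construction. Leaving out 1 library gave 2511 to 4522 calls at 650 ppm, 4474 to 8960 at 400 ppm and 5737 to 8599 for the difference between CO2 levels. Without SI-9 library 3 at 650 ppm and SI-9 library 2 at 400 ppm, chosen after seeing the data, the counts were 4957, 10021 and 9319. Fitting only the 6 libraries shared 2570 calls with the fit of all libraries. Over the named genes, 407 values kept their direction and side of the threshold, 66 lost the call, 4 gained it and 0 reversed. All 22 named calls were lost with sets in edgeR, 9 with sets in DESeq2, 9 with a minimum fold of 2 and 6 with library number as a block. Same-numbered SI-12 and SI-9 libraries at 650 ppm deviated together with r = 0.0118 to 0.0153 across 27459 genes. The SI-12 libraries are nearly a single profile, so this r cannot tell whether replicate numbers pair the libraries. With the replicate block the counts were 3873 at 650 ppm, 7609 at 400 ppm and 7411 for the difference, and no named call changed. Depth limits genes under 0.122 to 0.252 CPM, the level of 3 reads in a library.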

Other observations

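Calls were also read along consecutive identifiers, as values with no test. Among 19081 pairs of neighbouring identifiers, the second gene was higher in SI-12 roots in 160 of the 1150 pairs whose first gene was higher (13.9%), against 6.03% of all pairs. It was lower in 222 of the 1517 pairs whose first gene was lower (14.6%), against 8.09% of all pairs. Neighbouring genes can be similar copies that share reads. Runs of at least 3 neighbours called alike numbered 15 for higher and 35 for lower genes.

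The longest run, chosen after its values were seen, was Eucgr.I00445.1 to Eucgr.I00450.1, 6 genes lower in SI-12 roots. Their means ran from 0.129 to 1.06 CPM in SI-12 roots, against 3.15 to 20.2 CPM in SI-9 roots, with log2 fold changes of -5.71 to -2.24. SI-9 library 3 held 0.124 to 2.32 CPM of them and SI-9 libraries 1 and 2 averaged 4.06 to 29.7 CPM, so library 3 was low throughout the run. The groups did not overlap in 4 of the 6 genes, 0 were called the same way at 400 ppm and 2 the other way. Between 76.7% and 94.4% of their reads matched a single gene. Eucgr.B01855.1 to Eucgr.B01858.1, also chosen after their values were seen, were 4 neighbours higher in SI-12 roots, at means of 9.26 to 85.4 CPM, against 4.15 to 39.7 CPM in SI-9 roots. None of these 4 overlapped between the groups, library 3 included, and 3 were called the same way at 400 ppm. Runs of 4 higher genes numbered 3, and this one came first by identifier. In Eucgr.E00710.1 to Eucgr.E00713.1, 0 were called the same way at 400 ppm and 2 the other way. In Eucgr.G00786.1 to Eucgr.G00789.1 these numbers were 0 and 1.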
